A study of Mus musculus with 34 samples.

Results

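The genes described here make cholesterol, control its synthesis or move it within the cell. They were taken as a named set of 30 genes, all of which were present among the 53655 genes of the count tables. The set holds 8 genes of the mevalonate and isoprenoid steps, 3 that make and cyclise squalene, 8 that turn lanosterol into cholesterol, 5 of the SREBP control circuit, 3 of sterol transport and 3 of fatty acid synthesis. RNA was sequenced in 34 libraries of mouse cells, 17 of definitive endoderm (DE) and 17 of the epiblast stem cells (EpiSC, pluripotent cells of the primed state) that the endoderm was made from. All 30 genes passed the filter on low counts in every comparison below.

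The lines came from 7 inbred strains, and the labels name no engineered allele. DE libraries came from 4 lines of PWK/PhJ, 2 of NOD/ShiLtJ, 2 of NZO/HiLtJ, 2 of WSB/EiJ, 1 of CAST/EiJ, 1 of DBA/2J and 5 of C57BL/6J. EpiSC libraries came from 3 lines of PWK/PhJ, 2 of NOD/ShiLtJ, 2 of NZO/HiLtJ, 2 of WSB/EiJ, 2 of CAST/EiJ, 1 of DBA/2J and 5 of C57BL/6J. Cells of 129S1/SvImJ were not analysed here. The endoderm protocol took 40 h: CHIR (3 uM), which blocks GSK3, and 40 ng/mL activin were given for 16 h, and 100 ng/mL activin and LDN-193189 (100 nM), which blocks BMP receptors, for the next 24 h, after which cells bearing CXCR4 were captured on magnetic beads. It used a chemically defined medium with insulin and knockout serum replacement on laminin. EpiSC were kept in N2B27 medium with FGF, a tankyrase inhibitor and 20 ng/mL activin on irradiated mouse embryonic fibroblasts. The medium, which can hold lipid, and the library kit (low-input amplified cDNA for DE, stranded polyA for EpiSC) therefore changed together with cell type, and their effects cannot be told apart. Lines of C57BL/6J and DBA/2J carry plain numbers and those of the other strains carry AC or WM codes; the labels do not say whether these mark separate derivations, and naming scheme and strain cannot be told apart.

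Cells build cholesterol from acetyl-CoA through mevalonate, isoprenoid units, squalene and lanosterol. When sterol in the endoplasmic reticulum is low, SCAP escorts the transcription factors SREBP1 and SREBP2 to the Golgi for cleavage, and the freed factors raise the enzymes of the pathway; INSIG1 and INSIG2 hold SCAP back when sterol is plentiful, and Insig1 is itself a target. In embryos cholesterol is also joined to Hedgehog proteins, which take part in patterning the gut, and loss of the last enzymes of the pathway causes malformation syndromes.

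Each library held 23772045 to 67722013 counts in DE and 25584647 to 33831684 in EpiSC. The 30 genes took 0.595% to 1.06% of the counts of a DE library (median 0.921%) and 0.632% to 0.856% of those of an EpiSC library (median 0.773%). Of 8 endoderm markers all 8 rose in DE, with summed levels of 1370 to 13700 counts per 1000000 counts of the library (CPM), against 34 to 1220 CPM in EpiSC; one of them, Cxcr4, was used for the sort. Epiblast markers summed to 882 to 2910 CPM in DE and 1360 to 1840 CPM in EpiSC, with 6 of 8 lower and Fgf5 and Otx2 higher in DE. Fibroblast markers, 14 of 15 of which were lower in DE, summed to 124 to 1870 CPM in DE and 149 to 4260 CPM in EpiSC. Thy1, Dcn, Lum, Prrx1 and Fap were at 0 in at least 1 DE library. The 2 NOD/ShiLtJ DE libraries stood apart with endoderm sums of 1370 and 3660 CPM and fibroblast sums of 1560 and 1870 CPM. In bulk RNA, a smaller share of a cell type and less RNA per cell cannot be told apart.

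Most of the cholesterol pathway was higher in endoderm than in epiblast stem cells, and the fatty acid enzymes were lower. With edgeR's quasi-likelihood test and Benjamini-Hochberg adjustment over all genes, 20 of the 30 genes rose in DE, where 37.3% of all 20907 tested genes did, and 6 fell, where 39.9% did. In all, 26 of 30 were called, against 77.2% of the tested genes. The median log2 fold of the 30 was 0.37, against -0.06 over all tested genes. In 8 genes every DE library was above every EpiSC library (8.91% of tested genes): Acat2, Mvk, Fdft1, Sqle, Tm7sf2, Msmo1, Ebp and Insig2. In 1 gene, Fasn, every DE library was below every EpiSC library (10% of tested genes). With the level of the fibroblast markers as a covariate, 21 genes were called (14 higher and 7 lower), and without the 2 NOD/ShiLtJ DE libraries 27 were (22 higher and 5 lower).

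**Figure D1:**
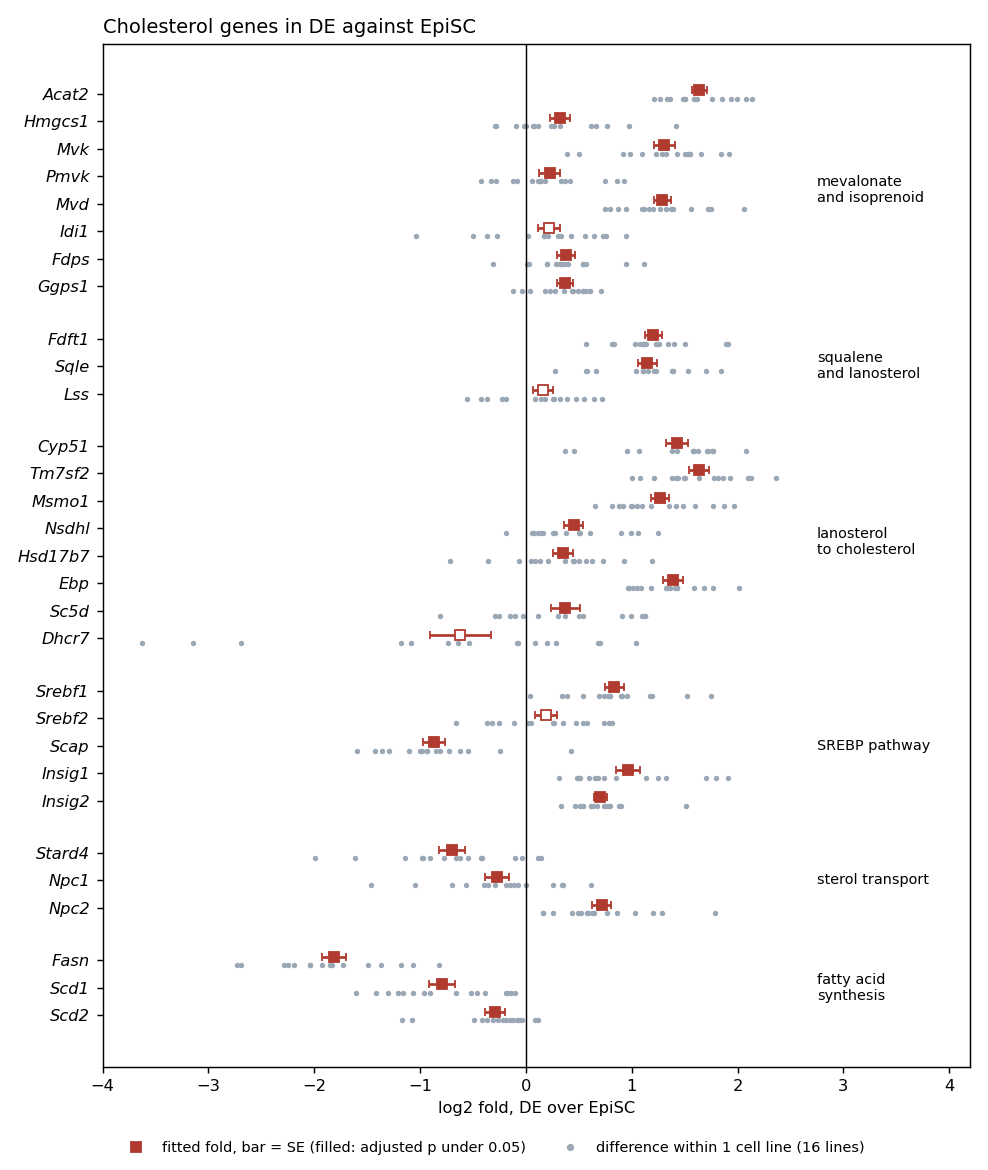
Log2 fold of DE over EpiSC for the 30 genes, grouped by role; each marker is the fitted fold with its SE (filled where the adjusted p was under 0.05), and grey points are the DE minus EpiSC differences in log2 CPM of the 16 lines with both libraries. Acat2 and Tm7sf2 stand farthest to the right at 1.64, and Fasn farthest to the left at -1.82.

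Of the 8 mevalonate and isoprenoid genes, 7 rose in DE and none fell, with a median log2 fold of 0.37. Acat2, the cytosolic thiolase that joins acetyl-CoA units at the entry of the pathway, ran from 8.43 to 9.06 log2 CPM in DE (median 8.81) and from 6.72 to 7.69 in EpiSC (median 7.05). The lowest DE library was above the highest EpiSC library, and all 16 lines with both libraries were higher as DE. Its fitted log2 fold was 1.64 (SE 0.07; edgeR's quasi-likelihood test, Benjamini-Hochberg adjusted p = 2.78e-19). Acat2 shares 65.6% of its transcript with near-identical copies, mainly Acat3, so its count is uncertain.

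Mvk, mevalonate kinase, ran from 6.04 to 7.23 log2 CPM in DE (median 6.73) and from 4.84 to 5.89 in EpiSC (median 5.45). The groups did not overlap, and the log2 fold was 1.31 (SE 0.10; edgeR's quasi-likelihood test, Benjamini-Hochberg adjusted p = 2.29e-13). Mvd, which decarboxylates mevalonate pyrophosphate, had a log2 fold of 1.29 (SE 0.08), with levels of 6.69 to 8.22 log2 CPM in DE and 5.52 to 7.09 in EpiSC that overlapped. Hmgcs1, the HMG-CoA synthase at the start of mevalonate synthesis, rose by less, with a log2 fold of 0.32 (SE 0.10); it ran from 8.79 to 10.22 log2 CPM in DE and from 8.68 to 9.44 in EpiSC. Its highest DE libraries were those of PWK/PhJ, described further on.

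Ggps1, which makes geranylgeranyl pyrophosphate for protein prenylation, and Fdps, farnesyl pyrophosphate synthase, each had a log2 fold of 0.37. The Fdps value is uncertain, because 91.4% of its transcript is shared with near-identical sequence and 26.7% of its exons overlap Gm43738 on the same strand. Pmvk, phosphomevalonate kinase, had a log2 fold of 0.23 (edgeR's quasi-likelihood test, Benjamini-Hochberg adjusted p = 0.0389). Its call ended when any of 10 of the 34 libraries was left out, most of all DE C57BL/6J line 2 (0.14, adjusted p = 0.137 by edgeR), and when cell line was a block (0.19). The Pmvk call also ended with no filter (0.21), with no strain term (0.33), without the C57BL/6J libraries (0.18) and without the NOD/ShiLtJ DE libraries (0.22). Idi1, which isomerises isopentenyl pyrophosphate, was at 0.22 and did not pass (adjusted p = 0.0546 by edgeR). Without the 2 NOD/ShiLtJ DE libraries it was at 0.35 and passed (0.000528), as it did with no strain term (0.23, 0.0426).

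The enzymes that commit carbon to sterol followed. Fdft1, squalene synthase, had 8.06 to 9.24 log2 CPM in DE (median 8.58) and 7.00 to 7.94 in EpiSC (median 7.36). Sqle, the squalene epoxidase that is a slow step of the pathway, had 8.25 to 9.50 log2 CPM in DE (median 9.06) and 7.48 to 8.22 in EpiSC (median 7.90). In both genes the groups did not overlap and all 16 lines were higher as DE, with log2 folds of 1.21 for Fdft1 (SE 0.08) and 1.15 for Sqle (SE 0.09). Lss, which folds the epoxide into lanosterol, had a log2 fold of 0.16 and did not pass (edgeR's quasi-likelihood test, Benjamini-Hochberg adjusted p = 0.106); without the 2 NOD/ShiLtJ DE libraries it was at 0.22 and passed (0.0355). Reads of Fdft1 may be shared with the copy Gm6781 and with Ctsb, which overlaps it on the other strand.

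Of the 8 genes between lanosterol and cholesterol, 7 rose in DE and none fell, with a median log2 fold of 0.86. Cyp51, the demethylase that acts first on lanosterol, ran from 8.49 to 10.08 log2 CPM in DE (median 9.54) and from 7.72 to 8.54 in EpiSC (median 8.01). The lowest DE library, NOD/ShiLtJ line AC595, reached down into the EpiSC range, and all 16 lines were higher as DE. The log2 fold was 1.43 (SE 0.10; edgeR's quasi-likelihood test, Benjamini-Hochberg adjusted p = 1.24e-13).

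Tm7sf2, a sterol reductase of the next step, ran from 5.55 to 6.92 log2 CPM in DE (median 6.42) and from 4.29 to 5.11 in EpiSC (median 4.78). Ebp, the isomerase that shifts the sterol ring double bond, ran from 5.69 to 6.76 log2 CPM in DE (median 5.96) and from 4.33 to 5.03 in EpiSC (median 4.63). Neither gene's groups overlapped, and the log2 folds were 1.64 for Tm7sf2 (SE 0.09; adjusted p = 1.86e-16) and 1.39 for Ebp (SE 0.09; adjusted p = 1.28e-14), both by edgeR's quasi-likelihood test and Benjamini-Hochberg adjustment. Exons of Tm7sf2 overlap Vps51 on the same strand over 12.1% of their length. Msmo1, which removes ring methyl groups with Nsdhl and Hsd17b7, had a log2 fold of 1.27 with no overlap. Nsdhl was at 0.45 and Hsd17b7 at 0.35, and both calls were lost with the fibroblast covariate, where Nsdhl was at 0.32 and Hsd17b7 at 0.27. The other calls lost with it were those of Hmgcs1 (0.12), Fdps (0.15), Ggps1 (0.13) and Sc5d (0.01).

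The last steps behaved less uniformly. Sc5d, the desaturase that makes the substrate of Dhcr7, spanned 5.69 to 8.02 log2 CPM in DE (median 6.60) and 6.01 to 6.92 in EpiSC (median 6.50). Its DE libraries lay both above and below the EpiSC range, and 10 of 16 lines were higher as DE. The log2 fold of 0.37 (SE 0.14; edgeR's quasi-likelihood test, Benjamini-Hochberg adjusted p = 0.0147) ended without DE CAST/EiJ line WM078 (0.30, adjusted p = 0.059) and without the C57BL/6J libraries (0.14, adjusted p = 0.341). Dhcr7, the reductase of the final step on this branch, spanned 3.76 to 7.83 log2 CPM in DE (median 6.83) and 6.77 to 7.71 in EpiSC (median 7.24). It was higher as DE in 6 of 16 lines, and the log2 fold of -0.62 (SE 0.29) did not pass (adjusted p = 0.0554 by edgeR, and 0.0275 by DESeq2); with the fibroblast covariate it was -1.20 and passed (adjusted p = 0.0396 by edgeR). Per-strain values of both genes are given below.

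The control genes moved in both directions. Srebf1, which encodes the SREBP that favours lipogenic targets, ran from 7.07 to 8.27 log2 CPM in DE (median 7.82) and from 6.46 to 7.28 in EpiSC (median 7.03). The ranges met over a narrow stretch, all 16 lines were higher as DE, and the log2 fold was 0.84 (SE 0.09; edgeR's quasi-likelihood test, Benjamini-Hochberg adjusted p = 7.19e-10). Srebf2, which encodes the SREBP that favours cholesterol genes, ran from 8.05 to 9.45 log2 CPM in DE (median 8.98) and from 8.37 to 9.17 in EpiSC (median 8.70). Its DE range enclosed that of EpiSC, and its log2 fold of 0.19 did not pass (adjusted p = 0.0959 by edgeR); without the 2 NOD/ShiLtJ DE libraries it was 0.27 and passed (0.024).

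Scap, the escort of both factors, ran from 3.92 to 5.70 log2 CPM in DE (median 4.62) and from 4.84 to 5.91 in EpiSC (median 5.62). It was lower as DE in 15 of 16 lines, and the log2 fold was -0.87 (SE 0.11; edgeR's quasi-likelihood test, Benjamini-Hochberg adjusted p = 9.81e-09). Part of its transcript, 18.9%, is shared with 5830462I19Rik, which overlaps 13.2% of its exons on the other strand. The retention factors rose. Insig1 ran from 7.02 to 8.98 log2 CPM in DE (median 7.69) and from 6.65 to 7.38 in EpiSC (median 6.87), with a log2 fold of 0.96 (SE 0.11; adjusted p = 6.92e-09 by edgeR). Insig2 ran from 5.20 to 5.58 log2 CPM in DE (median 5.36) and from 4.04 to 4.89 in EpiSC (median 4.70), with no overlap and a log2 fold of 0.70 (SE 0.06; adjusted p = 1.51e-11 by edgeR). Both were higher as DE in all 16 lines.

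Of the 3 transport genes, 1 rose and 2 fell. Stard4, a soluble carrier of cholesterol between membranes, ran from 4.72 to 7.08 log2 CPM in DE (median 6.32) and from 6.30 to 7.29 in EpiSC (median 6.96). It was lower as DE in 14 of 16 lines, and the exceptions were both WSB/EiJ lines. Its log2 fold was -0.70 (SE 0.12; edgeR's quasi-likelihood test, Benjamini-Hochberg adjusted p = 7.56e-06). The lysosomal pair that hands over cholesterol from endocytosed lipoprotein split: Npc2, the soluble partner, had a log2 fold of 0.71 (SE 0.09) and was higher as DE in all 16 lines, while Npc1, the membrane partner, had one of -0.27 (SE 0.11; adjusted p = 0.0314 by edgeR). The Npc1 call ended when any of 9 of the 34 libraries was left out, most of all DE CAST/EiJ line WM078 (-0.23, adjusted p = 0.088 by edgeR). It also ended without both NOD/ShiLtJ DE libraries (-0.15), without the C57BL/6J libraries (-0.28) and with cell line as a block (-0.23).

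All 3 fatty acid genes fell. Fasn, fatty acid synthase, ran from 7.55 to 9.58 log2 CPM in DE (median 8.48) and from 9.92 to 10.83 in EpiSC (median 10.49). No DE library reached the EpiSC range, and the log2 fold of -1.82 (SE 0.11; edgeR's quasi-likelihood test, Benjamini-Hochberg adjusted p = 2.57e-15) was the lowest of the 30. Scd1 and Scd2 are desaturases that make monounsaturated fatty acids. Scd1 ran from 6.51 to 8.29 log2 CPM in DE (median 7.39) and from 7.83 to 8.81 in EpiSC (median 8.19), and all 16 lines were lower as DE. Scd2 ran from 10.01 to 11.54 log2 CPM in DE (median 10.97) and from 10.55 to 11.60 in EpiSC (median 11.29), and 14 of 16 lines were lower as DE. The log2 folds were -0.79 for Scd1 (SE 0.12; adjusted p = 6.49e-07) and -0.29 for Scd2 (SE 0.09; adjusted p = 0.00598), both by edgeR. Scd1 and Scd2 match each other over 11.4% of the Scd2 transcript.

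**Figure D2:**
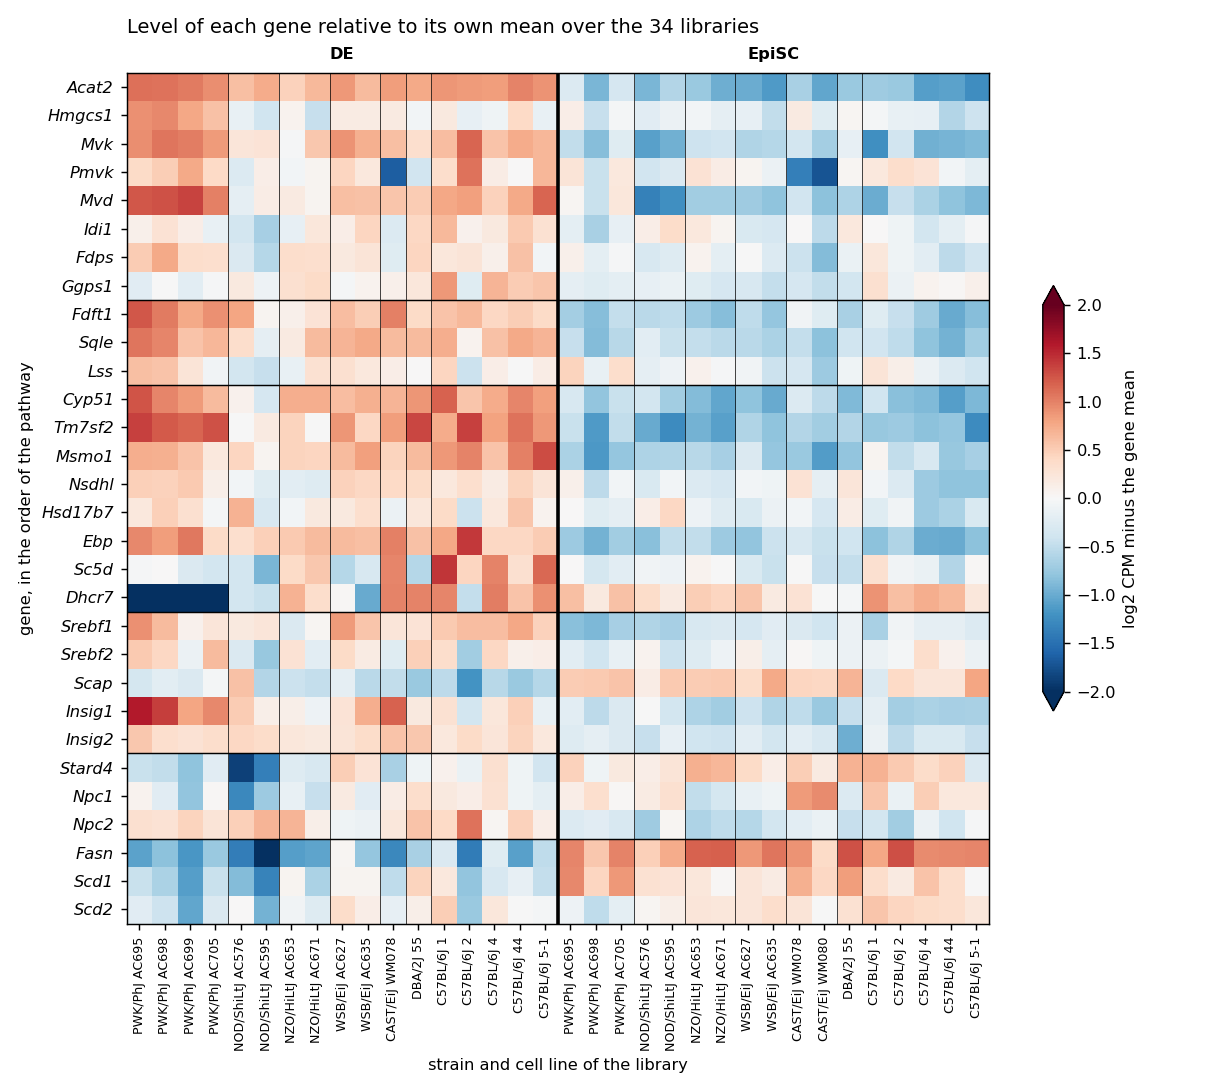
Log2 CPM of each of the 30 genes (rows, by role) in each of the 34 libraries (columns, DE left and EpiSC right, by strain), shown as the difference from the gene's mean over all libraries; colour ends at -2 and 2. Most synthesis genes are redder in DE, Fasn and Scd1 are redder in EpiSC, and Dhcr7 is deep blue in the 4 PWK/PhJ DE libraries.

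Levels of different genes were set side by side per kilobase of exon, with all annotated exons of a gene counted. For some genes this length far exceeds the longest protein-coding transcript. It was 4208 against 1382 bases for Fdps, and 10947 against 10050 for Fasn. Ranks by transcript length were not computed. Scd2 had the highest median of the 30 in both cell types, at 368 CPM per kb in DE and 457 CPM per kb in EpiSC. In DE it was followed by Acat2 (177 CPM per kb), Cyp51 (169) and Hmgcs1 (150). In EpiSC the next were Fasn (131 CPM per kb), Hmgcs1 (120) and Scd1 (59.7). Fasn ranked 17 of 30 in DE and 2 of 30 in EpiSC by this measure. The lowest median in DE was that of Scap, 3.30 CPM per kb, and the lowest in EpiSC was that of Fdps, 3.42 CPM per kb, whose count is uncertain as said above. Smaller near-identical stretches were found in Idi1 (33.3% of its transcript) and Ggps1 (27.3%), whose counts may be affected in the same way. In Hmgcs1 the shared stretch (16.2%) is that of Gm48342, which overlaps it on the other strand. In Npc1 (9.92%) the largest match is Rmc1, which also overlaps it on the other strand.

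Genes around the pathway moved both ways as well. Of 13 other SREBP and fatty acid targets, 7 rose and 4 fell (median log2 fold 0.30). The largest rises were in Pcyt2, an enzyme of phosphatidylethanolamine synthesis, at 1.29, and Tmem97, a sterol-regulated membrane protein, at 1.26. The largest falls were in Acaca, the acetyl-CoA carboxylase that feeds Fasn, at -3.38, and Elovl5, a fatty acid elongase, at -0.98. Of 17 genes of uptake, storage and efflux, 5 rose and 8 fell (median -0.28). Among them Mylip, which marks lipoprotein receptors for degradation, was at 1.68 and Stard3, an endosomal sterol carrier, at 1.43. At the other end were Lrp1, an endocytic lipoprotein receptor that fibroblasts also express, at -2.80, and Scarb2, a lysosomal membrane receptor, at -2.30. Of 6 genes of SREBP cleavage and INSIG turnover, 2 rose and 2 fell (median -0.04). Among them Erlin2 (0.57), which acts in INSIG turnover, rose, while the site-2 protease gene Mbtps2 (-0.94) and Erlin1 (-0.22) fell. All were called by edgeR's quasi-likelihood test in the same fit.

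Strain differences were asked within each cell type. In DE, the F test over the 5 strains with at least 2 lines in both cell types called 11 of the 30 genes, where it called 22.3% of 19290 tested genes. The smallest adjusted p-values were those of Dhcr7 (8.03e-05), Stard4 (0.000691), Mvd (0.000924), Sc5d (0.0022) and Tm7sf2 (0.00223), followed by Hmgcs1 (0.00432) and Insig1 (0.00888), all by edgeR's quasi-likelihood test and Benjamini-Hochberg adjustment. Nsdhl, Cyp51, Mvk and Fdft1 were also called, at 0.0228 to 0.0498, and these 4 calls ended in 4, 3, 13 and 11 leave-one-out fits; the other 7 stood in all of them. With the fibroblast covariate the calls of Sc5d (0.0829), Cyp51 (0.111) and Fdft1 (0.0747) ended. In PWK/PhJ DE, 6 of 30 genes differed from C57BL/6J DE, against 17.1% of tested genes; 3 were higher (9.66% of tested genes) and 3 lower (7.47%).

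Dhcr7 showed the widest strain difference of the set. It had 3.76, 3.79, 3.86 and 4.70 log2 CPM in the 4 PWK/PhJ DE libraries, against 6.33, 7.38, 7.72, 7.79 and 7.83 in the 5 C57BL/6J DE libraries. Every PWK/PhJ DE library was below every other DE library, the next lowest being WSB/EiJ line AC635 at 5.81. As CPM, the means were 16.9 ± 6.05 in PWK/PhJ DE (SD, n = 4) and 181 ± 61.3 in C57BL/6J DE (SD, n = 5). The log2 fold was -3.42 (SE 0.35; edgeR's quasi-likelihood test, Benjamini-Hochberg adjusted p = 7.27e-06), and no single library ended the call. In EpiSC, Dhcr7 had 7.00, 7.39 and 7.42 log2 CPM in PWK/PhJ libraries, against 7.04 to 7.71 in C57BL/6J libraries, so the groups overlapped there. Reads of all strains were aligned to the mm10 build, and the part of alignment in these values was not tested. In each of the 3 PWK/PhJ lines with both libraries, DE was lower than EpiSC, by differences of -3.63, -3.15 and -2.69 in log2 CPM. With PWK/PhJ left out of the strains compared, but its libraries kept in the fit, the F test for Dhcr7 in DE gave an adjusted p of 0.119 by edgeR.

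Sc5d, the enzyme just before Dhcr7, was also lower in PWK/PhJ DE. Its levels were 6.23, 6.30, 6.57 and 6.60 log2 CPM in PWK/PhJ DE, against 6.92, 7.03, 7.59, 7.75 and 8.02 in C57BL/6J DE. The groups did not overlap, and the log2 fold was -1.08 (SE 0.23; edgeR's quasi-likelihood test, Benjamini-Hochberg adjusted p = 0.004). With the fibroblast covariate it was -0.76 and did not pass (adjusted p = 0.0826); fibroblast markers summed to 267 to 634 CPM in PWK/PhJ DE and 158 to 408 CPM in C57BL/6J DE. Other strains had low Sc5d as well: the 2 NOD/ShiLtJ, 2 WSB/EiJ and 1 DBA/2J DE libraries had 5.69 to 6.27 log2 CPM, while NZO/HiLtJ (6.97 and 7.13) and CAST/EiJ (7.57) lay within the C57BL/6J range.

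Hmgcs1 and Insig1 went the other way in PWK/PhJ DE. Hmgcs1 had 9.84, 10.03, 10.17 and 10.22 log2 CPM in PWK/PhJ DE, against 9.09, 9.12, 9.17, 9.46 and 9.66 in C57BL/6J DE. Insig1 had 8.18, 8.34, 8.78 and 8.98 log2 CPM in PWK/PhJ DE, against 7.02, 7.24, 7.61, 7.69 and 7.86 in C57BL/6J DE. Neither gene's groups overlapped. The log2 folds were 0.76 for Hmgcs1 (SE 0.16; adjusted p = 0.00453) and 1.09 for Insig1 (SE 0.22; adjusted p = 0.00265) by edgeR's quasi-likelihood test and Benjamini-Hochberg adjustment. The single CAST/EiJ DE library had Insig1 at 8.58 log2 CPM, inside the PWK/PhJ range, and was not tested. Without PWK/PhJ the F test in DE gave adjusted p-values of 0.560 for Hmgcs1 and 0.657 for Insig1 by edgeR. Fdft1 (0.51) was also higher and Ggps1 (-0.63) lower in PWK/PhJ DE, and each of these calls ended in 8 leave-one-out fits. With the fibroblast covariate Fdft1 was at 0.56 (adjusted p = 0.0798 by edgeR) and Ggps1 at -0.34 (0.426).

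Hmgcs1 and Insig1 were called higher and Sc5d and Dhcr7 lower in PWK/PhJ DE, and Sc5d was low in other strains too. Whether these genes moved together was not tested. Their promoter stretches, picked because of these calls, are shown. They are the C57BL/6J reference sequence from RefSeq on GRCm38.p6, 5′ to 3′ on the gene's strand, and end just before the first RefSeq start; that of Insig1 is shorter at the edge of its annotated exon. Capitals mark the sterol regulatory element TCACNCCAC (N is any base), the E-box CACGTG, the CCAAT box CCAAT and the GC box GGGCGG, each searched on both strands. No motif overlaps another in these stretches, and the E-box reads the same on both strands. The gene ends follow the GRCm38 annotation: Hmgcs1 spans chr13:119690379-119708260 on the plus strand, Insig1 chr5:28071363-28078662 on the plus strand, Sc5d chr9:42251595-42264256 on the minus strand and Dhcr7 chr7:143823145-143848410 on the plus strand.
Hmgcs1, chr13:119690101-119690350, plus strand: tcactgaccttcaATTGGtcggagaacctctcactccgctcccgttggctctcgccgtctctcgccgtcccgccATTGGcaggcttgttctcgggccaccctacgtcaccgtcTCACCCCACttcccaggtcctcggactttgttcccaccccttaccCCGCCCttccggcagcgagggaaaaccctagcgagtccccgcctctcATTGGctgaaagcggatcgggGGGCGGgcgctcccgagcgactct
Insig1, chr5:28071162-28071362, plus strand: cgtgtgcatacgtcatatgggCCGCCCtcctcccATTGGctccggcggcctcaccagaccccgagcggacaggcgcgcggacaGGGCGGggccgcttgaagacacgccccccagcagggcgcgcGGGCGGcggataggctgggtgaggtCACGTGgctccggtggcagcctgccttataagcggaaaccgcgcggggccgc
Sc5d, chr9:42264301-42264550, minus strand: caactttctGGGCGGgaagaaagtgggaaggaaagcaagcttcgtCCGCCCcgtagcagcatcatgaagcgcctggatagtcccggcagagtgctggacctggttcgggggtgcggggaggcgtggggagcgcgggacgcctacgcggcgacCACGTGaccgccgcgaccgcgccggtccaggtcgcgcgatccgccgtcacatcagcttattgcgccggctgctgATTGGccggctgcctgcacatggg
Dhcr7, chr7:143822917-143823166, plus strand: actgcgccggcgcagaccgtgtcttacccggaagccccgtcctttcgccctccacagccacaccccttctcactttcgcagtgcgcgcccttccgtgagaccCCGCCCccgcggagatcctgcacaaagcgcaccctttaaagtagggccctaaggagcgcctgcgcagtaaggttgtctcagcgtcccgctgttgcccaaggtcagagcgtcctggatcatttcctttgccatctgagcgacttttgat

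Hmgcs1, which was higher in PWK/PhJ DE, holds 1 sterol regulatory element from 137 to 129 bases before the start, with 3 CCAAT boxes and 2 GC boxes. Insig1 holds an E-box from 101 to 96 bases before its RefSeq start, 1 CCAAT box and 3 GC boxes. That start lies just after chr5:28071411, past the end of the printed stretch, so the E-box is nearer to that end. Sc5d holds an E-box from 98 to 93 bases before the start, 1 CCAAT box and 2 GC boxes. Dhcr7 has windows at 3 RefSeq starts; the first, printed above, holds 1 GC box, while an E-box lies in the second and CCAAT boxes in the third. Of the 23 members with a window, 1 held the sterol regulatory element (4.35%, against 1.22% of 27025 genes), 5 the E-box (21.7%, against 6.86%), 21 a CCAAT box (91.3%, against 37.5%) and 20 a GC box (87%, against 35.4%). Only the patterns given above were searched, so an element that departs from them, such as from TCACNCCAC, was not counted. These matches describe the letters in the window and say nothing of the PWK/PhJ sequence or of binding. No window was used for Scd2, Fdps, Fdft1, Scd1, Stard4, Npc1 and Sqle.

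**Figure D3:**
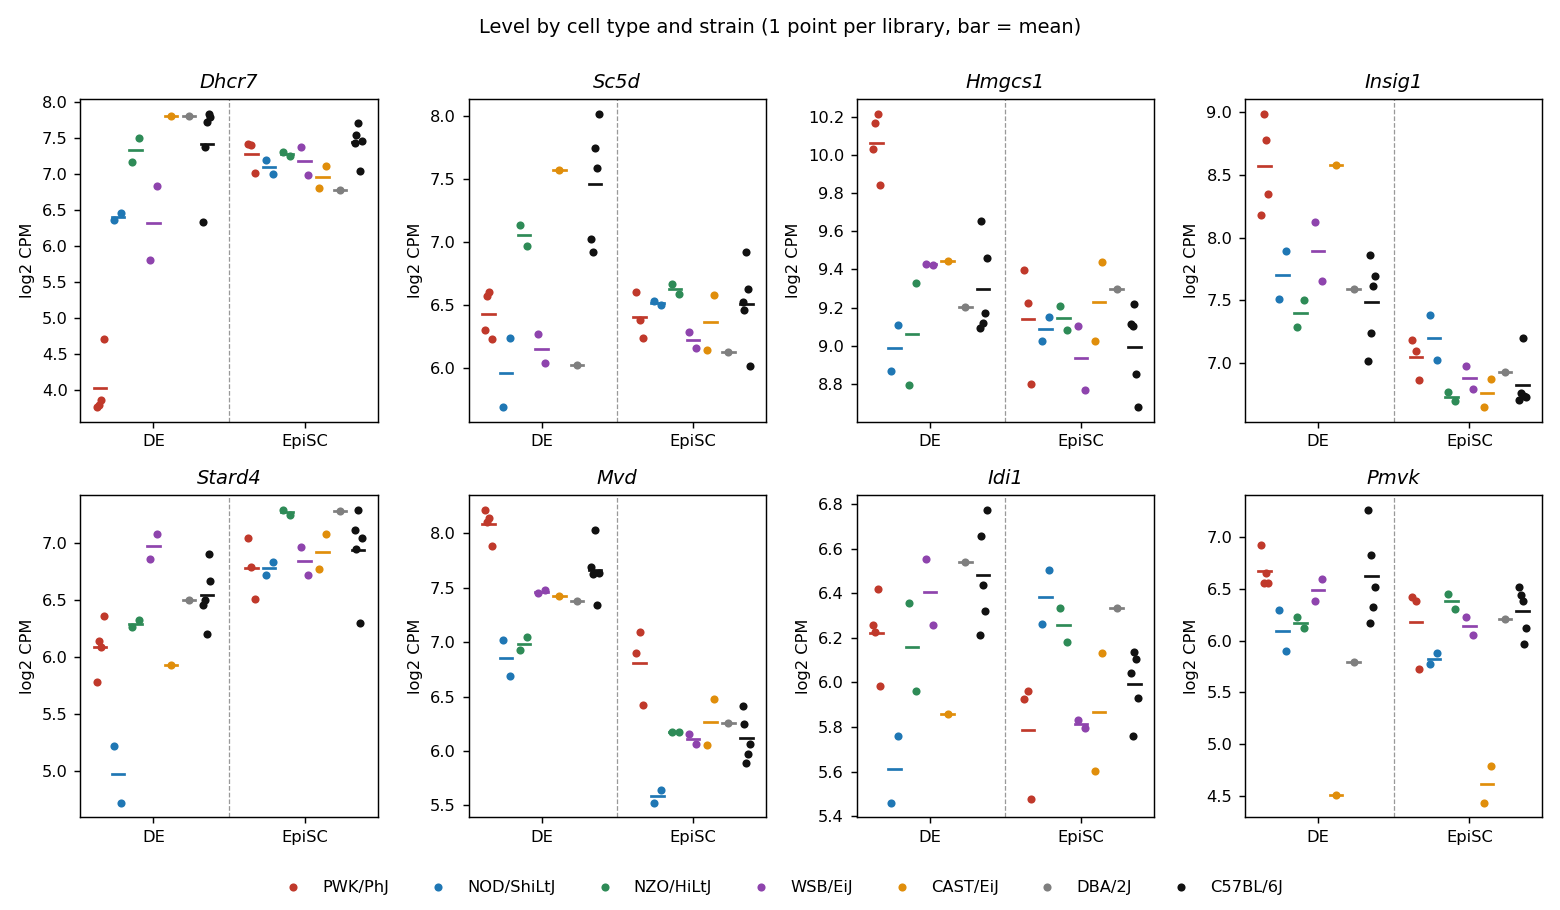
Log2 CPM of Dhcr7, Sc5d, Hmgcs1, Insig1, Stard4, Mvd, Idi1 and Pmvk by strain, DE left and EpiSC right in each panel; points are libraries and bars are strain means. Dhcr7 in PWK/PhJ DE (3.76 to 4.70) lies below all other libraries, and Pmvk is lowest in CAST/EiJ in both cell types.

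NOD/ShiLtJ endoderm had the largest number of lower genes. In all, 8 of 30 were lower than in C57BL/6J DE and none was higher; among tested genes 3.38% were lower, 7.98% higher and 11.4% called in all. Stard4 had 4.72 and 5.22 log2 CPM in NOD/ShiLtJ DE, against 6.20, 6.45, 6.49, 6.66 and 6.90 in C57BL/6J DE. The 2 values were the lowest of all 17 DE libraries, and the log2 fold was -1.56 (SE 0.23; edgeR's quasi-likelihood test, Benjamini-Hochberg adjusted p = 0.000802). Sc5d had 5.69 and 6.23 log2 CPM in NOD/ShiLtJ DE, with a log2 fold of -1.52 (SE 0.30; adjusted p = 0.00494 by edgeR). The others were Npc1 (-1.06), Cyp51 (-0.96), Tm7sf2 (-0.88), Idi1 (-0.86), Mvd (-0.81) and Msmo1 (-0.69). Scap, at 0.86, was called higher by DESeq2 and under RLE scaling in edgeR but not with TMM scaling.

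Mvd had 6.69 and 7.02 log2 CPM in NOD/ShiLtJ DE, against 7.34 to 8.03 in C57BL/6J DE. Tm7sf2 had 5.55 and 5.73 log2 CPM in NOD/ShiLtJ DE, against 6.30 to 6.92 in C57BL/6J DE. In both genes the 2 groups did not overlap, and NZO/HiLtJ DE was low too, with 6.93 and 7.05 log2 CPM for Mvd and 5.55 and 5.99 for Tm7sf2. Marker levels differed between these strains too, and a link to the cholesterol genes was not tested. In NOD/ShiLtJ DE, 11 of 15 fibroblast markers were higher and 6 of 8 endoderm markers lower than in C57BL/6J DE. The fibroblast markers summed to 1560 and 1870 CPM in NOD/ShiLtJ DE, against 158 to 408 CPM in C57BL/6J DE, and the endoderm markers to 1370 and 3660 CPM, against 6140 to 13700 CPM. The mean log2 CPM of the fibroblast markers was 5.24 and 5.35 in NOD/ShiLtJ DE, and at most 3.82 in any other DE library. In DE this covariate thus nearly coincides with NOD/ShiLtJ, and its effect can hardly be told apart from that of strain. With the fibroblast covariate none of the 8 passed the threshold (0 of 30), although all stayed lower. The log2 folds were then -1.28 for Stard4, -0.85 for Sc5d, -0.76 for Idi1, -0.74 for Mvd, -0.61 for Npc1 and -0.40 for Cyp51. All of these were smaller in size than before, while those of Tm7sf2 (-0.90) and Msmo1 (-0.70) hardly changed. Adjusted p-values of the 8 genes were 0.142 to 0.582 by edgeR. Apart from Stard4, whose call stood in all leave-one-out fits, each call ended without at least 1 NOD/ShiLtJ line or in several such fits: Sc5d (-1.25, adjusted p = 0.065 by edgeR) and Cyp51 without AC595, Npc1, Tm7sf2 and Mvd without AC576, Idi1 without either, and Msmo1 in 11 fits.

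In WSB/EiJ DE, 1 of 30 genes was called against C57BL/6J DE, where 2.28% of tested genes were (1.19% higher and 1.09% lower). Sc5d had 6.03 and 6.27 log2 CPM in WSB/EiJ DE, below all 5 C57BL/6J DE libraries, with a log2 fold of -1.36 (SE 0.30; edgeR's quasi-likelihood test, Benjamini-Hochberg adjusted p = 0.0245). The call ended without either WSB/EiJ line (adjusted p = 0.169 and 0.319) and with the fibroblast covariate (-1.15, adjusted p = 0.0578). In NZO/HiLtJ DE, 0 of 30 genes were called, against 1.41% of tested genes (0.918% higher and 0.492% lower) by edgeR's quasi-likelihood test. Of the 30 genes, 7 had an unadjusted p under 0.05 in that test, as did 2195 of the 19290 tested genes. DESeq2 called 4 of the 30, and its share over all genes is not given.

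**Figure D4:**
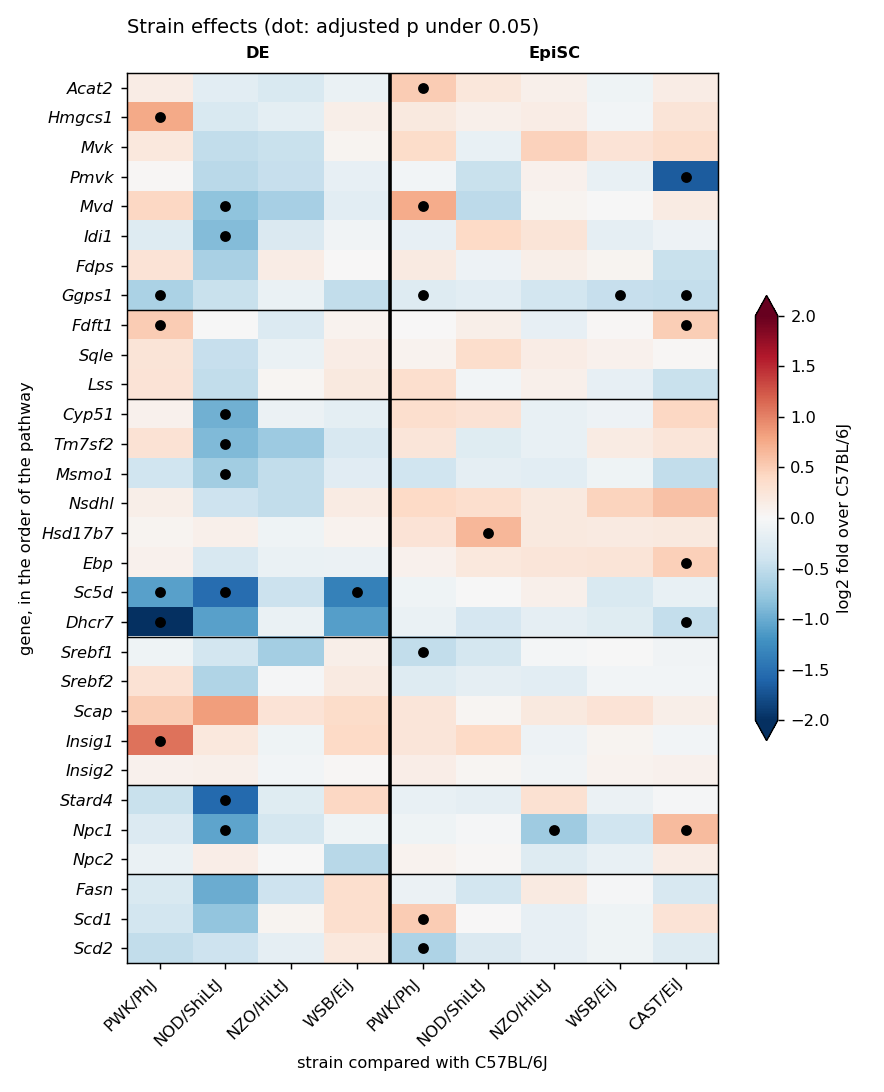
Log2 fold over C57BL/6J of the 30 genes (rows, by role) in the 9 strain comparisons (columns, 4 in DE left and 5 in EpiSC right); dots mark an adjusted p under 0.05 and colour ends at -2 and 2. The deepest values are Dhcr7 in PWK/PhJ DE (-3.42) and Pmvk in CAST/EiJ EpiSC (-1.66).

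In EpiSC the F test called 8 of 30 genes, where it called 40% of 17868 tested genes. The smallest adjusted p-values were those of Mvd (0.00135), Scd2 (0.00174), Srebf1 (0.0122), Npc1 (0.0135) and Ggps1 (0.0141), and Scd1, Hsd17b7 and Idi1 were called at 0.0174 to 0.041, all by edgeR's quasi-likelihood test and Benjamini-Hochberg adjustment. Only Mvd was called by the F test in both cell types. Its call and that of Scd2 and Ggps1 stood in all leave-one-out fits. Srebf1 ended without PWK/PhJ line AC698 (0.0641), Npc1 without NZO/HiLtJ line AC653 (0.0894) and Scd1 without PWK/PhJ line AC695 or AC705 (0.106 and 0.0879), while Idi1 ended in 8 and Hsd17b7 in 9 such fits; Hsd17b7 also ended with the fibroblast covariate (0.0667). In PWK/PhJ EpiSC, 6 of 30 genes differed from C57BL/6J EpiSC, against 29.8% of tested genes; 3 were higher (13.7% of tested genes) and 3 lower (16.1%).

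Mvd had 6.42, 6.90 and 7.09 log2 CPM in PWK/PhJ EpiSC, against 5.89, 5.98, 6.06, 6.25 and 6.42 in C57BL/6J EpiSC, with a log2 fold of 0.74 (SE 0.15; edgeR's quasi-likelihood test, Benjamini-Hochberg adjusted p = 0.0019). Its 2 highest PWK/PhJ libraries were above every other EpiSC library. Scd2 had 10.55, 10.85 and 10.94 log2 CPM in PWK/PhJ EpiSC, against 11.28, 11.40, 11.43, 11.48 and 11.60 in C57BL/6J EpiSC. The groups did not overlap, and the log2 fold was -0.62 (SE 0.09; adjusted p = 0.000205 by edgeR). Srebf1 had 6.46, 6.52 and 6.69 log2 CPM in PWK/PhJ EpiSC, just below the 6.70 to 7.28 of C57BL/6J EpiSC, with a log2 fold of -0.50 (SE 0.11; adjusted p = 0.00357 by edgeR). Acat2 (0.52) and Scd1 (0.50) were also higher and Ggps1 (-0.26) lower in PWK/PhJ EpiSC, with calls that ended in 4, 2 and 9 leave-one-out fits; Ggps1 also ended with the fibroblast covariate (-0.16). The count of 6 was 3 without PWK/PhJ EpiSC line AC695 and 3 without line AC705. Without PWK/PhJ the F test in EpiSC gave adjusted p-values of 0.128 for Mvd, 0.185 for Scd2 and 0.178 for Srebf1 by edgeR.

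In CAST/EiJ EpiSC, 6 of 30 genes differed from C57BL/6J EpiSC, against 31.6% of tested genes, with 3 higher (14.5%) and 3 lower (17.1%). Pmvk had 4.44 and 4.79 log2 CPM in CAST/EiJ EpiSC, against 5.97, 6.12, 6.38, 6.44 and 6.51 in C57BL/6J EpiSC. No other EpiSC library was as low, the log2 fold was -1.66 (SE 0.20; edgeR's quasi-likelihood test, Benjamini-Hochberg adjusted p = 3.86e-05), and no single library ended the call. The 1 CAST/EiJ DE library had 4.51 log2 CPM, against 5.79 to 7.26 in the other DE libraries, and was not tested. Whether fewer CAST/EiJ reads of Pmvk align to the C57BL/6J genome was not tested. Npc1 had 7.24 and 7.34 log2 CPM in CAST/EiJ EpiSC, against 6.26 to 6.95 in C57BL/6J EpiSC (log2 fold 0.63). Fdft1 (0.49) and Ebp (0.48) were also higher, and Ggps1 (-0.48) and Dhcr7 (-0.48) lower. All 5 of these calls ended without CAST/EiJ line WM080, and that of Dhcr7 in 10 leave-one-out fits and with the fibroblast covariate (-0.31). The count of 6 was 1 without CAST/EiJ line WM080 and 3 without line WM078. Endoderm markers summed to 1010 to 1220 CPM in CAST/EiJ EpiSC and 34 to 358 CPM in C57BL/6J EpiSC, and their part in these values was not tested.

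The remaining EpiSC comparisons called 1 gene each. In NOD/ShiLtJ EpiSC it was Hsd17b7 (log2 fold 0.67, SE 0.15), where 12.9% of tested genes were called (5.98% higher and 6.94% lower); it had 5.85 and 6.13 log2 CPM, against 5.00 to 5.65 in C57BL/6J EpiSC, and the call ended without line AC595. In NZO/HiLtJ EpiSC it was Npc1 (-0.71), where 5.52% were called (2.7% higher and 2.82% lower); it had 5.90 and 6.04 log2 CPM, against 6.26 to 6.95 in C57BL/6J EpiSC, and the call ended without either NZO/HiLtJ line. In WSB/EiJ EpiSC it was Ggps1 (-0.46), where 7.41% were called (3.45% higher and 3.96% lower); it had 5.00 and 5.15 log2 CPM, against 5.34 to 5.79 in C57BL/6J EpiSC, and the call ended without line AC635. All calls are by edgeR's quasi-likelihood test and Benjamini-Hochberg adjustment.

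Whether strain effects differed between the cell types was tested directly as an interaction over the 5 strains. It called 7 of 30 genes, where it called 10.7% of tested genes. Dhcr7 had the smallest adjusted p (1.32e-05 by edgeR's quasi-likelihood test), and the effect of PWK/PhJ over C57BL/6J was more negative in DE than in EpiSC by -3.25 on the log2 scale. With PWK/PhJ left out of the strains compared, but its libraries kept in the fit, the adjusted p for Dhcr7 was 0.395 by edgeR. Stard4 followed (adjusted p = 0.00572), where the NOD/ShiLtJ effect differed by -1.38; it had 6.72 and 6.84 log2 CPM in NOD/ShiLtJ EpiSC, within the 6.30 to 7.28 of C57BL/6J EpiSC. Idi1 came next (adjusted p = 0.00713), with a NOD/ShiLtJ difference of -1.27: it had 5.46 and 5.76 log2 CPM in NOD/ShiLtJ DE, below the 6.21 to 6.77 of C57BL/6J DE, and 6.26 and 6.50 in NOD/ShiLtJ EpiSC, against 5.76 to 6.13 in C57BL/6J EpiSC.

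Sc5d (0.0157), Cyp51 (0.0223), Scd1 (0.025) and Npc1 (0.0391) were the other genes called. The calls of Dhcr7, Stard4, Idi1 and Sc5d stood in all leave-one-out fits. Cyp51 ended without DE NOD/ShiLtJ line AC595 (0.0981) or EpiSC NOD/ShiLtJ line AC576 (0.16), while Scd1 ended in 3 and Npc1 in 7 such fits. The fibroblast covariate ended the calls of Cyp51 (0.0944) and Npc1 (0.13), and that of Scd1 ended without PWK/PhJ (0.152). For Sc5d the strain effect in DE was more negative than in EpiSC in PWK/PhJ (-0.96), NOD/ShiLtJ (-1.51) and WSB/EiJ (-1.05). Sc5d in EpiSC varied little among strains, with strain means of 6.12 (DBA/2J, 1 library) to 6.63 log2 CPM. Without NOD/ShiLtJ the interaction was no longer called for Stard4 (0.166), Idi1 (0.385), Cyp51 (0.915), Npc1 (0.614) and Sc5d (0.0669), and with cell line as a block Idi1 was just past the threshold (0.0503); these are adjusted p-values by edgeR. As the kit and medium changed with cell type, an effect of strain on either cannot be told apart from an effect on the cells.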

How the data were processed

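The authors deposited raw whole-number counts for each gene and library, and those of 34 libraries were used. The aligner STAR 2.4, the counter HTSeq 0.6.1, DESeq2 (without a version) and the build mm10 are named per the submitters' processing notes. Not given in the sources used here are the gene annotation's release, whether counting used strand, and how multiply aligned reads were treated. Replicates are separate cell lines of a strain. The members and lists were chosen with earlier results of these data known.

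Counts were analysed in R 4.3.3 with edgeR 4.0.16 (quasi-likelihood test, TMM scaling, robust fit) on genes that reached 10 counts in 3 or more libraries of the fit, and p-values were adjusted by Benjamini-Hochberg over all genes tested with a threshold of 0.05. Levels are log2 CPM with a prior count of 2. DE against EpiSC was fitted with strain as a term over 34 libraries; strain comparisons were fitted within each cell type over 17 libraries; the interaction used all 34. Alternatives were RLE scaling, DESeq2 1.42.0, no filter, each library left out, the fibroblast marker level as a covariate, no strain term, the C57BL/6J libraries left out and cell line as a block. The tests without NOD/ShiLtJ or without PWK/PhJ were chosen after seeing the data. In the F tests and the interaction, the strain was left out of the strains compared, and its libraries stayed in the fit. In DE against EpiSC, the NOD/ShiLtJ DE libraries were removed. Counts of different libraries of a group differed by more than sampling noise, with a chi-square per degree of freedom of at least 28.4 in DE and 6.02 in EpiSC. Same-line libraries pair by origin, and their deviations from strain means correlated at 0.0014 to 0.147 over 14 lines (median 0.036). Where a strain has 2 lines, both give the same value by construction, so these values are not all separate. The scripts were tested on simulated data.

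Genes given with per-library values or ranges were the 5 called with the largest and the 5 with the smallest log2 fold in DE against EpiSC, the 5 with the smallest p in each F test, the 3 with the smallest p in the interaction, and Srebf1, Srebf2, Scap, Insig1 and Insig2; Hmgcs1, Pmvk and other genes were added after their values were seen. A gene of the surrounding lists is not reported here. Overlaps and copies were read from the GRCm38 annotation and its transcripts, which may differ from the annotation behind the counts. Promoter windows came from a RefSeq table that matched 23 of 30 genes.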

Additional observations from a re-analysis of the deposited data

Results flagged for a closer look

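Among 90 groups of 4 or 5 libraries of 1 strain, cell type and gene, 7 held a library far from the others, and chance alone gives about 5%. In DE C57BL/6J, line 2 was the highest for Mvk (7.23 log2 CPM) and the lowest for Sqle (8.49) and Srebf2 (8.11). In DE PWK/PhJ, line AC705 was the lowest for Nsdhl (6.99 log2 CPM) and the highest for Dhcr7 (4.70). In EpiSC C57BL/6J, line 5-1 was the lowest for Tm7sf2 (4.29 log2 CPM) and line 1 the highest for Insig1 (7.20).

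In 7 genes the strain effect differed between DE and EpiSC by the interaction test of edgeR with Benjamini-Hochberg adjustment. The adjusted p-values were 1.32e-05 for Dhcr7, 0.00572 for Stard4, 0.00713 for Idi1, 0.0157 for Sc5d, 0.0223 for Cyp51, 0.025 for Scd1 and 0.0391 for Npc1.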

How the results depend on the processing

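The number of the 30 genes called was within 1.5 times of the reported number under RLE scaling in every comparison. No log2 fold that was called in the main fit or in the alternative changed sign. Sign changes of log2 folds called in neither were not counted, and the F tests and the interaction carry no sign. Apart from those with cell line as a block, the counts listed next are only those outside 1.5 times of the reported number. Smaller shifts are not listed, and shares over all genes are not given for these settings. DESeq2 called more genes in NOD/ShiLtJ DE (13), NZO/HiLtJ DE (4), NOD/ShiLtJ EpiSC (3) and NZO/HiLtJ EpiSC (2). It also did so in the F test in DE (19) and the interaction (11). Without the filter, WSB/EiJ DE had 2 calls and the interaction 11. The fibroblast covariate gave 3 calls in PWK/PhJ DE, 0 in NOD/ShiLtJ DE, 0 in WSB/EiJ DE and 4 in NOD/ShiLtJ EpiSC. Without PWK/PhJ, the F test called 6 genes in DE and 3 in EpiSC, and without NOD/ShiLtJ the interaction called 3. With cell line as a replicate block, for lines paired by origin, DE against EpiSC called 24 genes (19 higher and 5 lower) and the interaction 6. The causes were not tested.

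With each library left out in turn, DE against EpiSC called 24 to 27 genes (19 to 21 higher, 5 to 7 lower). The counts ran from 4 to 6 in PWK/PhJ DE, 3 to 13 in NOD/ShiLtJ DE and 0 to 3 in WSB/EiJ DE; in EpiSC they ran from 3 to 8 in PWK/PhJ, 0 to 4 in NOD/ShiLtJ, 0 to 3 in NZO/HiLtJ, 0 to 2 in WSB/EiJ and 1 to 8 in CAST/EiJ. The F test called 7 to 16 genes in DE and 5 to 10 in EpiSC, and the interaction 4 to 11. Without C57BL/6J line 2, NOD/ShiLtJ DE had 13 calls, WSB/EiJ DE 3, NZO/HiLtJ EpiSC 3, WSB/EiJ EpiSC 2 and the interaction 11. NOD/ShiLtJ DE had 5 calls without line AC595 and 3 without AC576. NOD/ShiLtJ EpiSC had 4 without C57BL/6J line 1, 3 without line 5-1, 3 without PWK/PhJ line AC698 and 0 without AC595. The F test in DE had 7 without PWK/PhJ line AC698. The F test in EpiSC had 5 without PWK/PhJ line AC695 and 5 without NZO/HiLtJ line AC653. The interaction had 4 without EpiSC NOD/ShiLtJ line AC576. Strains with 2 lines are then fitted with 1, which is assumed to vary like the others. Most strains have 2 lines, which limits the strain comparisons.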
